A study of Mus musculus with 8 samples.

Results

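PML-RARa is the fusion protein of acute promyelocytic leukaemia, made by a chromosome translocation that joins PML to the retinoic acid receptor RARA. The results below compare cells transduced with PML-RARa with non-transduced cells (NT), both labelled as having Ring1b. The comparison uses 2 of the 8 mRNA libraries of the series, 1 a side, so it has no replicate check and no test. All cells were lineage-negative bone marrow cells of C57BL/6 mice, enriched for haematopoietic progenitors with a kit. All carried the genotype Ring1a-/- Cdkn2a-/-, the non-transduced cells included, so both sides lacked one of the alternative PRC1 ubiquitin ligases and the INK4A/ARF tumour suppressor locus. The 2 compared libraries are labelled Ring1b WT and are the controls treated with ethanol for 72 h. The other 6 libraries are the same contexts labelled Ring1b KO after OHT (4-hydroxytamoxifen) for 72 h, and cells transduced with HOXA9 or MLL-AF9 under either treatment. Neither the age and number of the mice, nor the vector and its promoter, nor any selection of transduced cells is given in the sources used here. The deposited column of the NT control is headed "Empty", and whether those cells received a vector without an insert cannot be read from these sources.

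RARA is a nuclear receptor that binds DNA with a retinoid X receptor (RXR) partner and switches target genes on when retinoic acid is bound. The fusion keeps the DNA-binding and ligand-binding parts of RARA, recruits corepressors, disperses the PML nuclear bodies and blocks granulocytes at the promyelocyte stage, where primary granules are made and later granules are not yet filled. PRC1, the Polycomb complex whose catalytic subunit Ring1b is encoded by Rnf2, keeps developmental genes such as the Hox clusters silent in blood cells.

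The values are the authors' normalised read counts per RefSeq transcript, scaled jointly over all 8 libraries. The PML-RARa library held 5992257 reads on transcripts and the NT library 6998223. Differences are given as log2(value + 1) in PML-RARa minus that in NT, a scale that understates the change of low values. Ratios carry an exact 95% interval that covers counting error only. Of 19353 transcripts, 10932 reached 20 in the higher library and were compared, and 8421 did not.

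The labels were checked first. Rnf2 stood at 666 in NT and 990.4 in PML-RARa, and at 802 and 771 in the OHT-treated libraries labelled Ring1b KO. In HOXA9 it was 896 with Ring1b labelled WT and 856 labelled KO, and in MLL-AF9 769.8 and 767. The counts therefore do not show the loss that the KO label states, and which part of the gene was to be removed is not given in the sources used here. Ring1, the gene given as deleted, was still counted at 109 and 179.9, and its transcripts need not be lost when only part of a gene is removed. The same holds for Cdkn2a, whose 2 transcripts had values of 25.6 and 18.2 in NT against 66 and 34.4 in PML-RARa. The introduced fusion is not among the features counted. Mouse Pml was 49.6 in NT and 46.9 in PML-RARa, and the most abundant of the 4 Rara transcripts was 24.8 and 44. Hoxa9 was 20.7 in NT, 23.9 in PML-RARa and 249.9 in the library labelled HOXA9. The progenitor marker Cd34 was similar, 96.8 in NT and 83.2 in PML-RARa, and the stem cell marker Slamf1 was 50.5 and 7.65. Ly6a, which encodes the stem cell antigen Sca-1, was counted at no more than 3 reads in either library, and Kit, at 24 and 9.57, has too few reads for a firm value. The T cell marker Cd3e was at 1 or 2 reads. Mpo, Cpa3 and Itga2b, which mark granulocyte precursors, mast cells and basophils, and the platelet lineage, were among the abundant transcripts of both libraries, so both preparations held committed myeloid cells as well as progenitors. Both libraries also held Xist (2408 in NT and 683 in PML-RARa), the RNA of the inactive X chromosome, and the Y chromosome genes Ddx3y (545 and 1275) and Eif2s3y (310.2 and 95.7), which differed in opposite directions. The labels do not give the sex of the mice, and the part of this in the results was not tested.

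Of the 10932 transcripts, 1352 (12.4%) were at least 2-fold higher in PML-RARa than in NT and 905 (8.28%) at least 2-fold lower. The counts given for gene lists below are to be read beside these shares. The median difference was -0.06 and the quartiles were -0.40 and 0.31. At 8-fold or more, 404 were higher and 113 lower. Of the 1352 higher transcripts, 281 had a value of 5 or less in NT, and of the 905 lower ones, 102 had a value of 5 or less in PML-RARa. Actb, a cytoskeletal gene of every cell, differed by 0.12 and Gapdh, a glycolytic enzyme, by 0.24. At the 2-fold limit, Mt2 (222 in NT and 445 in PML-RARa) was just inside and F10 (66.2 and 133) just outside on the higher side. Ebi3 (426 and 212) was just inside and Zfp456 (79.4 and 39.2) just outside on the lower side.

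**Figure D1:**
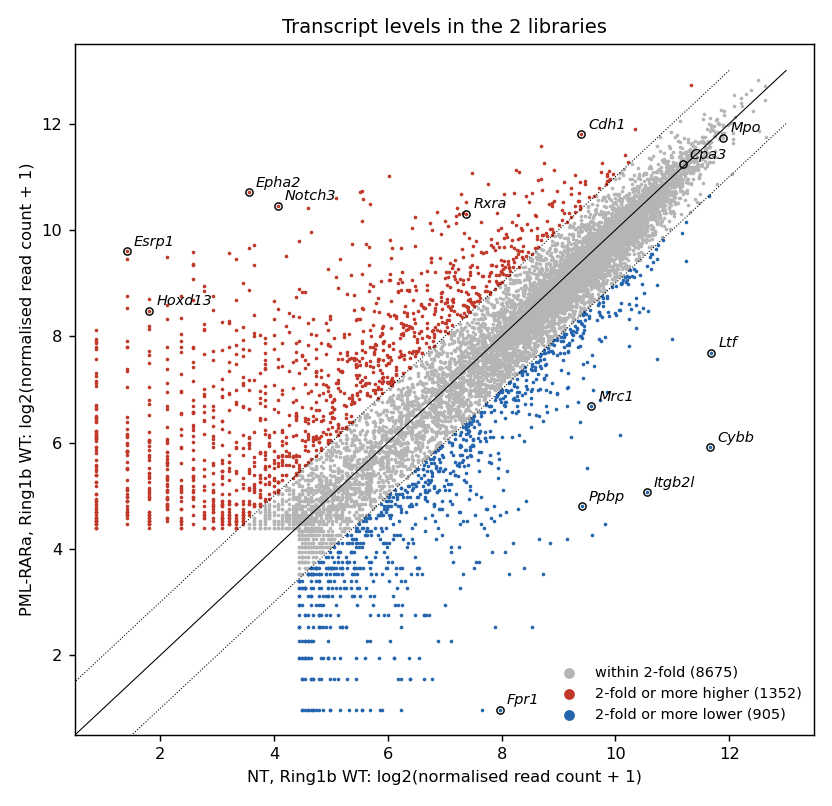
Level of each of the 10932 compared transcripts in NT (horizontal axis) and PML-RARa (vertical axis), both as log2(normalised read count + 1) in 1 Ring1b WT library each, with the transcripts at least 2-fold higher in red and at least 2-fold lower in blue. The solid line marks equal values and the dotted lines 2-fold differences. Esrp1, Epha2 and Notch3 lie far above the lines, Fpr1, Cybb and Itgb2l far below, and Mpo and Cpa3 between them.

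The 15 largest differences on the higher side included genes known from epithelia, from embryonic tissues and from growth factor signalling. Among transcripts that reached 100 in the higher library, Esrp1, a splicing regulator of epithelial cells, differed most. It stood at 1.65 in NT (2 reads) and 773 in PML-RARa, a ratio of 467 (counting interval 129 to 3865). Alpl, tissue-nonspecific alkaline phosphatase, was next with 1.65 and 704. Epha2, an ephrin receptor tyrosine kinase, was 10.8 in NT and 1669.7 in PML-RARa, a ratio of 155 (90.5 to 292), and it is the best counted of the 15 largest. Igf2bp1, an oncofetal RNA-binding protein, was 4.96 and 772, and Trim71, a regulator of stem cell RNAs, was at its lowest entry of 1 read in NT and at 222 in PML-RARa. Gipr, the receptor for the gut hormone GIP, was 4.96 and 657. In the OHT-treated libraries it was 19.7 in NT and 13.1 in PML-RARa. Also among the 15 were the Wnt ligand Wnt10b, the homeobox and other developmental transcription factors Lbx1, Irx5, Zic1 and Dmrt3, the transporter Slc47a1, the scaffold protein Mpp3 and AI836003. In NT none of the 15 exceeded the 10.8 of Epha2.

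Those genes were not high in PML-RARa alone. In the Ring1b WT library of HOXA9, Esrp1 stood at 247, Alpl at 311, Epha2 at 819 and Igf2bp1 at 519. In MLL-AF9 the same 4 were 16.9, 19.1, 31.8 and 10.6. Dmrt3 was the exception among the 15 in HOXA9, at 14.9 against 247 in PML-RARa, and Irx5, at 364, was the highest of the 15 in MLL-AF9. These other comparisons with NT share the NT library, so their values are set side by side only. Over all 1352 higher transcripts, the median value was 22.3 in NT, 139 in PML-RARa, 88.8 in HOXA9 and 31.8 in MLL-AF9. The transcripts were chosen on their values in NT and PML-RARa, so these medians are a description.

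The 15 largest differences on the lower side included several genes of maturing neutrophils. Fpr1, the formyl peptide receptor by which neutrophils sense bacteria, was 249 in NT and at 1 read in PML-RARa. Its relative Fpr2 was 424 and 10.5, a ratio of 40.2 in favour of NT (22.3 to 81.1). Cybb, the catalytic subunit of the phagocyte NADPH oxidase, was 3257 in NT and 59.3 in PML-RARa, which is 54.9-fold lower (42.7 to 71.7). Itgb2l, an integrin subunit of maturing neutrophils, was 1502 and 32.5, and Fcnb, the ficolin of neutrophil granules, was 900.1 and 21.1. Retnlg, a resistin-like peptide of neutrophils, was 460.0 and 16.3, and Ceacam10 was 337 and 11.5. In HOXA9 and MLL-AF9, Fpr1 was 7.47 and 5.29, Fpr2 90.5 and 68.8, Cybb 1909 and 648, and Itgb2l 394 and 361. Fcnb was 420 and 359 there, Retnlg 132 and 22.2, and Ceacam10 56.5 and 64.6. All of these values lay below NT and above PML-RARa. The genes were chosen on their values in NT and PML-RARa, so this order is a description. Outside the neutrophil genes, Treml1 (109 and 1.91) and Ppbp (678 and 26.8) belong to platelets, Scarf1 (367 and 4.78) is a scavenger receptor and Lrrk2 (566 and 17.2) a large kinase of myeloid cells. The other 4 of the 15 were the potassium channel Kcnk12 and Ankrd22, Plbd1 and Tmc7. Not all of the 15 kept the order above. Scarf1 was 463 in HOXA9, and Tmc7 was 137 in NT, 245 in HOXA9 and 201 in MLL-AF9. Ppbp was 11.6 in MLL-AF9, below PML-RARa. In bulk RNA, fewer cells of a type and less RNA per cell cannot be told apart. Over all 905 lower transcripts the median value was 107 in NT, 27.7 in PML-RARa, 47.3 in HOXA9 and 46.6 in MLL-AF9. These transcripts too were chosen on NT and PML-RARa, so the medians are a description.

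Neutrophil genes were listed by the stage at which they are made, and the difference between the 2 lists was not tested. Of 21 compared transcripts of primary granule genes, made at the promyelocyte stage, 1 was 2-fold higher and 3 were lower, with a median difference of -0.19 against -0.06 over all transcripts. Mpo, myeloperoxidase, was 3801 in NT and 3410.3 in PML-RARa. The serine protease cathepsin G gene Ctsg was 1277 and 1353, Prtn3 (proteinase 3) 1458 and 964, and Elane (neutrophil elastase) 1272 and 789. These 4 were within 2-fold, but at over 1 read per base of transcript, where the read counts level off, their ratios can be compressed. Hgf, hepatocyte growth factor, was the higher one, at 621 in NT and 2084 in PML-RARa. The lower ones were the lysozyme genes Lyz2 (1202 and 321) and Lyz1 (222 and 73.7), near-identical copies between which reads can be split, and 1 transcript of Cd63 (43 and 16.3).

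Of 36 compared transcripts of late granule and maturation genes, 15 were 2-fold lower and 2 higher, with a median of -0.60. The summed level of the whole list was 31687 in NT, 20259 in PML-RARa, 22516 in HOXA9 and 18114 in MLL-AF9. It was thus below NT in all the transduced cells of the Ring1b WT libraries. Ltf, lactoferrin of the secondary granules, was 3289 in NT and 206 in PML-RARa, 16-fold lower (13.9 to 18.4). Camp, the cathelicidin of the same granules, was 723 and 45. Cd177, a neutrophil surface antigen, was 2050.1 and 247, Chi3l3, a chitinase-like protein, 1693 and 189, and Mmp9, the gelatinase of tertiary granules, 1519 and 354. Ngp, another secondary granule gene, did not pass 2-fold, at 1747 and 1191, though ratios of transcripts with many reads per base can be compressed. The higher ones were Adam8 (1305 and 3827), a metalloprotease, and Cxcr2 (908 and 1875), the chemokine receptor that draws neutrophils to tissue. In the pair of OHT-treated libraries, where 4.23% of 10802 transcripts were higher and 5.83% lower in PML-RARa than in NT, 14 of 36 late granule transcripts were lower and 3 higher. Of the 21 primary granule transcripts, none was lower there and 4 were higher.

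**Figure D2:**
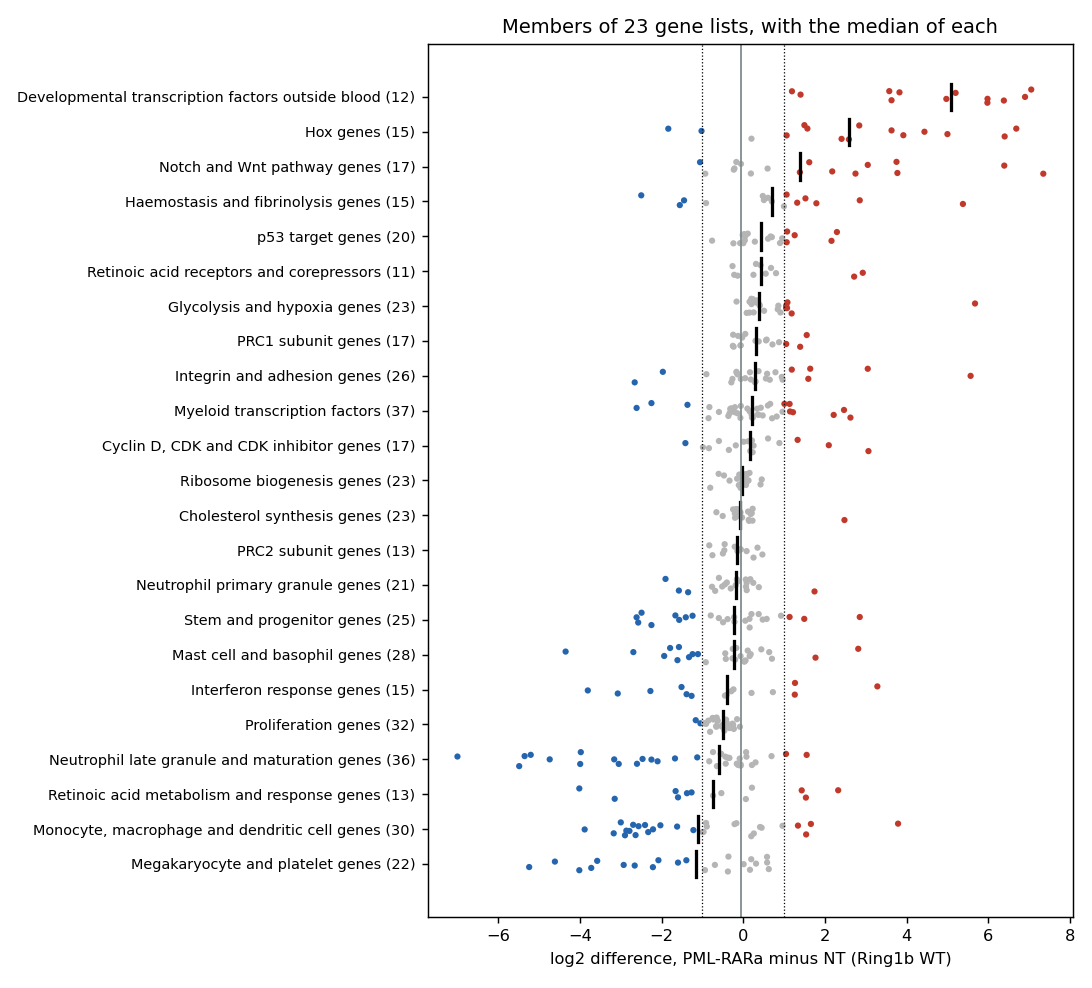
Log2 difference, PML-RARa minus NT in the Ring1b WT libraries, of each compared transcript (points) in 23 gene lists, with the number compared in brackets and a black bar at the list's median. Red and blue points lie at or beyond the dotted 2-fold lines, and the grey line is the median of all transcripts, -0.06. The list medians run from -1.17 for megakaryocyte and platelet genes to 5.08 for developmental transcription factors. In all lists, the Hox and developmental ones among them, genes silent in NT appear only if they are higher in PML-RARa, and the reverse. The medians are therefore a description.

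Retinoid genes bear on the receptor side of the fusion. Of 11 compared transcripts of retinoic acid receptors and corepressors, 2 were 2-fold higher and none lower. Rxra, the RXR partner of RARA, was 165 in NT and 1264 in PML-RARa, a ratio of 7.64 (6.58 to 8.91). Vdr, the vitamin D receptor, which also pairs with RXR, was 52.9 and 353, a ratio of 6.67 (5.1 to 8.84). Rxra was at 698 in HOXA9 and 134 in MLL-AF9, and Vdr at 587 and 399. After OHT the NT library itself had 1009 for Rxra and 182 for Vdr, against 1569.8 and 161 in PML-RARa.

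Of 13 compared transcripts of retinoic acid metabolism and response, 6 were lower and 3 higher. Cyp26a1, which degrades retinoic acid and is among the genes most directly switched on by it, was 30.6 in NT and at 1 read in PML-RARa, while HOXA9 had 504 and MLL-AF9 368. After OHT, Cyp26a1 was at 2 reads in NT and 1 in PML-RARa, so no difference was detectable there. Cd38, a surface enzyme induced by retinoic acid in leukaemia cells, was 289 and 94.7. Rarres1 was 135 and 42.1, and the retinoic acid synthesis gene Aldh1a1 24.8 and 1.91. Usp18, also an interferon response gene, was 61.2 and 24.9. Higher were Tgm2, tissue transglutaminase (662 and 1918), Asb2, a ubiquitin ligase subunit induced by retinoic acid in promyelocytic leukaemia (298 and 805), and Aldh1a3, another enzyme of retinoic acid synthesis (29.8 and 153). Asb2 was low in the other transduced cells, 82.2 in HOXA9 and 14.8 in MLL-AF9, whereas Tgm2 was higher in them than in PML-RARa, at 3769 and 3863. The named targets thus divided between both directions. Of 11 compared transcripts of PML nuclear body genes, 1 was 2-fold higher, the kinase gene Hipk2 (14.1 and 40.2), and none lower.

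Notch and Wnt pathway genes were higher for 9 of 17 compared transcripts and lower for 1, with a median of 1.39. Members under 20 in NT, such as Notch3 and Wnt10b, were compared only because they were higher in PML-RARa. The count and median are therefore a description. Notch3, a Notch receptor, was 15.7 in NT and 1401 in PML-RARa, a ratio of 89.1 (56.9 to 148). Its ligand gene Jag2 was 88.5 and 1205, a ratio of 13.6 (11.2 to 16.7). Jup, plakoglobin or gamma-catenin, which serves both cell junctions and Wnt signalling and is known as a target of leukaemia fusion proteins, was 151 and 1259, a ratio of 8.32 (7.12 to 9.76). The Wnt ligand Wnt10b was 1.65 and 431, and Tcf7, a transcription factor that carries the Wnt signal, was 33.9 and 477. Nrarp, a feedback gene of Notch, was 90.2 and 237. Axin2, a feedback target of Wnt, was the lower one, at 170.4 and 81.3, and Hes1, a target of Notch, stayed just within 2-fold at 251 and 131. After OHT, 2 of 15 were higher and 1 lower. HOXA9 had 917 for Notch3, 692 for Jag2 and 913 for Jup, and MLL-AF9 51.9, 220.2 and 381.

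Adhesion and epithelial genes included some of the widest differences. Of 26 compared integrin and adhesion transcripts, 5 were higher and 2 lower. Itga3, a laminin receptor subunit, was 6.62 in NT and 359.8 in PML-RARa. The lower ones were Selp (199 and 30.6), P-selectin of platelets, and Vcam1 (134 and 33.5), which stood at 797 in HOXA9 and 737 in MLL-AF9. Of 12 compared stromal, endothelial and epithelial transcripts, 4 were higher, all of them epithelial, and 4 lower. Krt18 and Krt19 were under 20 in NT and were compared only because they were higher in PML-RARa, so the count is a description. Cdh1, E-cadherin, which is also made by mast cells, basophils and erythroid precursors, was 671 and 3570.1. Epcam was 20.7 and 889, Krt18 17.4 and 726, and Krt19 3.31 and 29.7. Outside the list, and chosen after their values were seen, Krt7 was 5.79 and 459 and Esrp2 13.2 and 248, while Krt8, the usual keratin partner of Krt18, was only 4.96 and 14.4. The lower ones were Vwf, Tie1, Tek and Col1a1, of which Vwf (844 and 110.0) is also a platelet gene and Tie1 (82.7 and 1.91) an endothelial and stem cell receptor. The summed level of the whole list was 1952 in NT, 5584 in PML-RARa, 2837 in HOXA9 and 794 in MLL-AF9, and the part of other cell types in it was not tested.

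Hox and other developmental transcription factors were mostly at the edge of detection in NT. Of 40 Hox transcripts in the tables, 15 passed the filter, and of these 12 were higher and 2 lower, with a median of 2.59. A gene silent in NT passes the filter only if it is higher in PML-RARa, so these counts are a description. Hoxa11 was 4.14 in NT and 433 in PML-RARa, and Hoxd13 2.48 and 357. Hoxa7 was 47.2 and 135 and Hoxa5 38.9 and 82.3, both well below the 343 and 566 of MLL-AF9. The lower ones were Hoxb4 (178 and 87.1) and Hoxb2 (26.5 and 6.7). Hoxd13 was 154 in HOXA9 but 5.29 in MLL-AF9, where Hoxa11 stood at 743, so the Hox genes that were high differed between the transduced cells. After OHT, Hoxd13 was 54 in NT and 42.8 in PML-RARa.

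Of 40 transcripts of developmental transcription factors outside blood, 12 passed the filter and all 12 were higher, by a median of 5.08. Here too a gene silent in NT passes the filter only if it is higher in PML-RARa, so the count and median are a description. Zic1, a factor of neural tissue, was 2.48 and 414, Tbx15, of the skeleton, 4.14 and 322, Six2, of the kidney, 7.45 and 309, and Zic2 1.65 and 220.1. In the OHT pair, 5 of 14 were higher and 1 lower, and the NT library there already held 176 of Tbx15, 121 of Six2 and 119 of Zic2. Of 17 compared transcripts of PRC1 subunits, 3 were higher and none lower, with a median of 0.30 against -0.06 over all transcripts, the most abundant of the 3 being Cbx7 (156 and 458), a chromodomain subunit. None of 13 PRC2 transcripts (median -0.14) and none of 8 DNA methylation transcripts passed 2-fold in either direction.

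**Figure D3:**
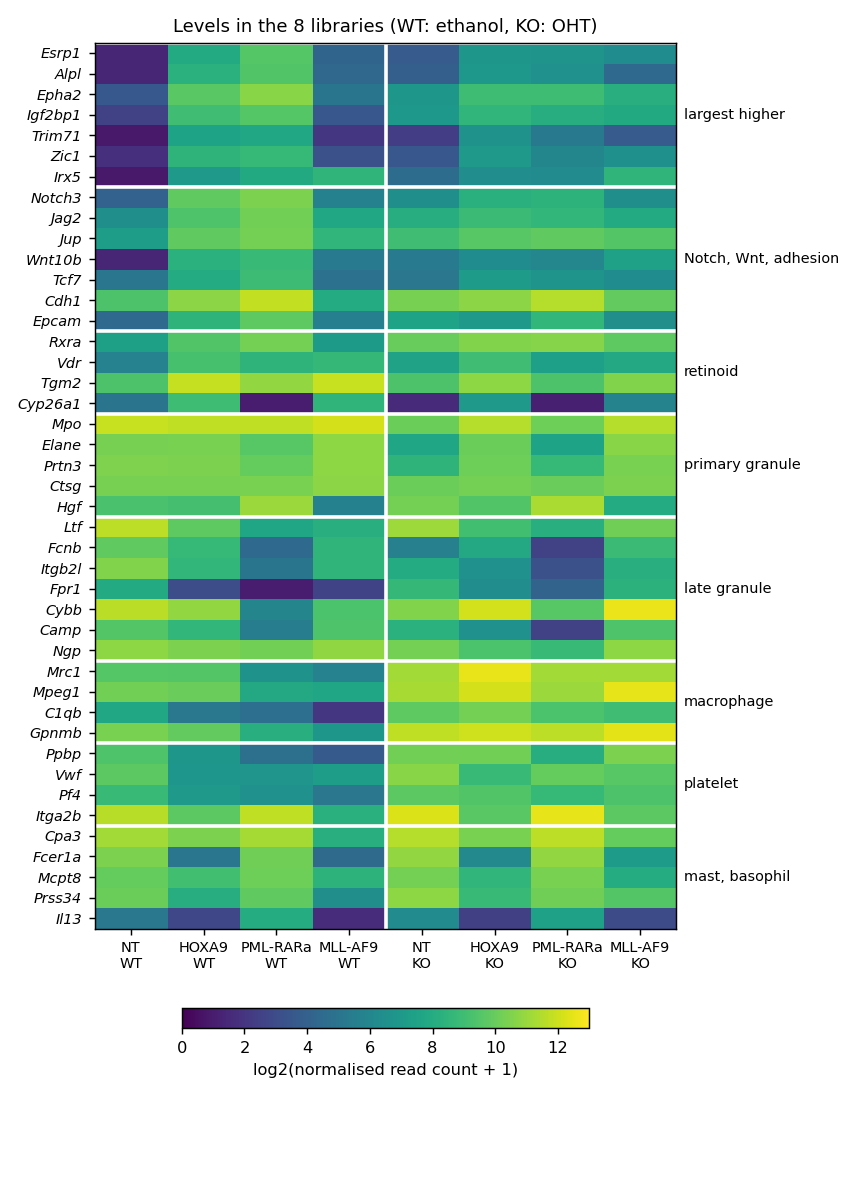
Level of 43 named genes in all 8 libraries as log2(normalised read count + 1) (colour), with the 4 Ring1b WT libraries on the left and the 4 Ring1b KO libraries on the right. Each column is 1 library and the gene groups are named at the right. The genes with the largest differences on the higher side are dark in NT WT and bright in HOXA9 WT and PML-RARa WT. The same holds for most Notch, Wnt and adhesion genes. Mast cell and basophil genes other than Il13 are bright in NT and PML-RARa under both treatments, and Il13 is darker in NT WT than in PML-RARa WT.

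Monocyte, macrophage and dendritic cell genes were lower for 15 of 30 compared transcripts and higher for 4, with a median of -1.11. The macrophage genes Mrc1 (the mannose receptor, 761 in NT and 101 in PML-RARa), Gpnmb (1322 and 285) and Mpeg1 (perforin-2, 1200.4 and 226) were the most abundant of the lower ones. C1qb, of complement C1q, was 213 and 25.8, and Cx3cr1, the fractalkine receptor, 222 and 53.6. The higher ones were Emr1, which encodes the macrophage and eosinophil antigen F4/80 (655 and 1659), the MHC class II gene H2-Ab1 (223 and 649), Batf3, a dendritic cell factor (7.45 and 116), and the progenitor receptor Flt3 (15.7 and 51.7). After OHT, 4 of 31 were lower and none higher, Mrc1 was 2309 in NT and 2309 in PML-RARa, and the summed level of the list was 25461 and 21709 there against 10193 and 6995 in the Ring1b WT pair.

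Chemokine and receptor genes were lower for 8 of 22 compared transcripts and higher for 4. Ccl8, a monocyte chemoattractant, was 81.9 in NT and at 3 reads in PML-RARa. Ccl24, the eosinophil chemoattractant eotaxin-2, went the other way, from 46.3 in NT to 366 in PML-RARa. Of 21 compared transcripts of inflammatory cytokines and activation, 7 were higher and 3 lower. The inflammasome sensor gene Nlrp3 was 471 and 1454 and the prostaglandin synthase gene Ptgs2 50.5 and 173, while arginase Arg1 was 573 and 131. Interferon response genes divided, with 3 of 15 higher and 6 lower. Oasl2 was 25.6 in NT and 258 in PML-RARa, Ifit2 187 and 12.4, and Oas2 96 and 10.5, although all belong to the same antiviral programme. Rsad2 (45.5 and 15.3) and Cxcl10 (22.3 and 3.83) were lower as well, from few reads.

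Megakaryocyte and platelet genes were lower for 11 of 22 compared transcripts and higher for none, with a median of -1.17. The summed level of the list was nonetheless similar, 22209 in NT and 21748 in PML-RARa. Ppbp, a platelet chemokine, is given above, and its relative Pf4, platelet factor 4, was 443 in NT and 94.7 in PML-RARa. Vwf, von Willebrand factor, was 7.67-fold lower (6.32 to 9.38). Subunits of the receptor that binds it were lower too, Gp1ba at 866 and 329 and Gp9 at 100.1 and 23. Itga2b, the integrin alpha-IIb that appears early in the lineage and is shared with mast cells and basophils, was not, at 3064 and 3435. The OHT pair had 8 of 22 lower and none higher. HOXA9 and MLL-AF9 also had low values, 128 and 34.9 for Pf4 and 112 and 157 for Vwf.

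Promyelocytic leukaemia is known for bleeding and excess fibrinolysis, so genes of haemostasis were listed. Of 15 compared transcripts, 6 were higher and 3 lower. Serpine2, a protease inhibitor, was 320.2 in NT and 921 in PML-RARa, and the protein C pathway genes Procr and Thbd 25.6 and 191, and 43.8 and 154. F2rl1, the protease-activated receptor PAR2, was 5.79 and 281. Lower were Plau, urokinase (1016 and 345), Pdpn, podoplanin (33.1 and 11.5), and 1 transcript of Tfpi, the tissue factor pathway inhibitor. F3, tissue factor itself, was 51.3 and 26.8, within 2-fold. Anxa2 and S100a10, whose complex activates plasmin on promyelocytes, were 1248 and 1739, and 471 and 717, also within 2-fold.

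Mast cell and basophil genes had a similar summed level in both libraries, but single members differed. The sum was 31302 in NT and 30208 in PML-RARa, against 8618 in HOXA9 and 5003 in MLL-AF9. Cpa3, mast cell carboxypeptidase, was 2321 in NT and 2413 in PML-RARa, the high-affinity IgE receptor gene Fcer1a 1388 and 1162, and the basophil proteases Mcpt8 and Prss34 979.5 and 1111, and 1076 and 896. In HOXA9 and MLL-AF9, Fcer1a was 33.2 and 21.2. Of the 28 compared transcripts 2 were 2-fold higher and 9 lower. The higher ones were the cytokine gene Il13 (36.4 and 262) and the compared transcript of Il4 (23.2 and 81.3). That Il4 transcript is a non-coding one in RefSeq, so its value is not the level of the cytokine mRNA. The lower ones included the mast cell proteases Tpsg1 (1110.3 and 514), Mcpt2 (1031 and 337) and Mcpt1 (307 and 102) and the prostaglandin D synthase Hpgds (764 and 199). These 3 mast cell proteases were past 2-fold lower, while the mast cell carboxypeptidase Cpa3 and the basophil proteases Mcpt8 and Prss34 were within 2-fold. Where abundant genes of this list have many reads per base, their ratios can be compressed, so these differences are a description. Gata2, a transcription factor of these cells and of stem cells, was 3379 and 3765, and Gata1 680.1 and 539.

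Eosinophil genes were higher for 3 of 9 compared transcripts and lower for 2, against 12.4% and 8.28% over all transcripts. Alox15, 15-lipoxygenase, was 122 in NT and 453 in PML-RARa, Prg3, a granule protein, 103 and 305, and the eotaxin receptor Ccr3 8.27 and 21.1. Prg2, the major basic protein, was 623 and 716 and the peroxidase gene Epx 662 and 373, both within 2-fold, and Il5ra, the interleukin-5 receptor, was lower at 63.7 and 26.8. After OHT, 8 of 11 were higher in PML-RARa than in NT and none lower, with Alox15 at 142 and 1404 and Ccr3 at 15.6 and 105. Erythroid genes were higher for 4 of 18 and lower for 4 in the Ring1b WT pair, beside the same shares over all transcripts. Epor, the erythropoietin receptor, was 86.9 and 256, Rhag 29.8 and 229.7, Klf1, the erythroid factor, 40.5 and 109 and the membrane skeleton gene Sptb 96 and 205. The lower ones included Hemgn (139 and 62.2), Aqp1 (47.2 and 2.87) and Ermap.

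The core transcription factors of myeloid cells were close to NT. Spi1, which encodes PU.1, was 1246 in NT and 1187 in PML-RARa, Cebpa 1389.9 and 1872, and Cebpe, the factor of late granule genes, 839.7 and 973. Of 37 compared transcripts of myeloid transcription factors, 7 were higher and 3 lower. Zbtb16, which encodes PLZF, itself a fusion partner of RARA in a rare form of the disease, was 88.5 and 494, a ratio of 5.58 (4.52 to 6.93). The AP-1 genes Fosb, Fos and Fosl2 were 263 and 1627, 469 and 1038, and 946 and 2202. Mycn was 261 and 573. Lower were Cebpd (665 and 257) and both transcripts of Gfi1, a repressor required for neutrophil maturation (the more abundant 75.3 and 11.5).

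Cytokine receptor genes were higher for 5 of 32 transcripts and lower for 5. Osmr, the oncostatin M receptor, was at 1 read in NT and at 142 in PML-RARa, and its relative Lifr at 29.8 and 131. Csf3r encodes the receptor for the neutrophil growth factor G-CSF. Its only compared transcript, a non-coding one in RefSeq, was 26.5 and 4.78, from 32 and 5 reads. That value is not the level of the receptor mRNA. Stem and progenitor genes were lower for 8 of 25 and higher for 3, against 8.28% lower and 12.4% higher over all transcripts. Ikzf2, Helios, was 874 and 2461, whereas Mecom, a transcription factor of stem cells, was 171 and 29.7 for its most abundant transcript. Of 28 transcripts of surface antigens used to type myeloid leukaemia, 1 was higher and 4 lower, among them Clec12a (1452 and 451). In the HOX/MEIS leukaemia programme, which shares members with the Hox list, 6 of 24 were higher and 7 lower. Of 5 compared transcripts of B, T and NK cell genes, 3 were higher and 1 lower, among them Tcf7 and the factor gene Gata3 (45.5 and 234), and the summed level of that list was 375 in NT and 909 in PML-RARa. The higher members number 3 to 7 in each of the transcription factor, receptor, integrin, BCL2, p53 target, cyclin, glycolysis, eosinophil and erythroid lists. These counts are too small to set apart from the 12.4% over all transcripts.

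Proliferation genes were lower in PML-RARa for all 32 compared transcripts, although only 2 passed 2-fold. Their median was -0.50, against -0.06 over all transcripts. Their summed level was 51808 in NT and 37049 in PML-RARa. It was below NT in the other transduced cells too, at 38113 in HOXA9 and 46658 in MLL-AF9. Mki67, the Ki-67 antigen, was 5913 in NT and 3739 in PML-RARa. None of 23 ribosome biogenesis transcripts passed 2-fold in either direction, with a median of -0.02. Among cyclin D, CDK and CDK inhibitor genes, 3 of 17 were higher and 1 lower, against 12.4% and 8.28% over all transcripts. Ccnd1, cyclin D1, was 146 and 1226, a ratio of 8.42 (7.19 to 9.91), while Ccnd2, cyclin D2, was 2967 and 3439. The neighbouring inhibitor gene of the deleted locus, Cdkn2b, was 127 and 544. Rbl1, which encodes p107, was lower for 1 transcript (932 and 348, a difference of -1.42) and within 2-fold for another (-0.84). With OHT, Ccnd1 was 2105 in NT and 2208 in PML-RARa, so the high level was then in both.

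Of 20 compared p53 target transcripts, 5 were higher and none lower, against 12.4% and 8.28% over all transcripts. Perp, a membrane protein of the apoptosis response and of epithelial junctions, was 399.6 and 1962, Btg2, an inhibitor of proliferation, 393 and 942, and Pmaip1, which encodes the BH3 protein NOXA, 621 and 1299. Cdkn1a, the p21 gene, was within 2-fold at 43 and 66 for its more abundant transcript. In the BCL2 family 3 of 14 were higher, including Bmf (106 and 417), and 2 lower, the near-identical copies Bcl2a1a and Bcl2a1b. Glycolysis and hypoxia genes were higher for 6 of 23 and lower for none, beside the same shares over all transcripts. Adm, adrenomedullin, was 4.14 and 261, with 318 in HOXA9 and 269 in MLL-AF9, and Pdk1, Bnip3, Ndrg1 and Egln3, all induced by low oxygen, had ratios between 2.07 and 2.12. None of the 22 compared in the OHT pair passed 2-fold. Of 23 cholesterol synthesis transcripts, 1 was higher and none lower, with a median of -0.07.

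The OHT-treated libraries of the same contexts are the only other pair, and they differ in treatment and in the Ring1b label, so they are no replicate. Over all 10932 compared transcripts, 35.9% were higher and 64.1% lower in PML-RARa in that pair, 4.03% and 4.99% by 2-fold or more, with a median of -0.13. Of the 1352 transcripts higher in the Ring1b WT pair, 307 (22.7%) were 2-fold higher in the OHT pair, 907 (67.1%) had the same sign and 52 were 2-fold lower. Of the 905 lower ones, 290 (32.0%) were 2-fold lower, 775 (85.6%) had the same sign and 16 were 2-fold higher. With the value filter applied in both pairs, 258 higher transcripts were shared, 19.1% of the Ring1b WT list and 56.5% of the 457 of the OHT list. For lower transcripts 255 were shared, 28.2% of the Ring1b WT list and 40.5% of the 630 of the OHT list. The median difference of the higher transcripts was 2.05 in the Ring1b WT pair and 0.31 in the OHT pair, and that of the lower ones -1.53 and -0.66. The transcripts were chosen on the first pair, so these medians are a description.

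Single genes show both patterns. Itgb2l differed by -5.49 and by -4.79 in the OHT pair, Ltf by -3.99 and -2.91, and Fpr1 by -7.00 and -4.50. Cybb differed by -5.76 but by -0.92 after OHT, where it was 1475 in NT and 779.5 in PML-RARa. Esrp1 differed by 8.19 and 2.97 and Epha2 by 7.15 and 2.07, with NT higher and PML-RARa lower after OHT than before. Notch3 was 89.4 in NT and 339 in PML-RARa after OHT, again between the levels of the Ring1b WT pair.

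**Figure D4:**
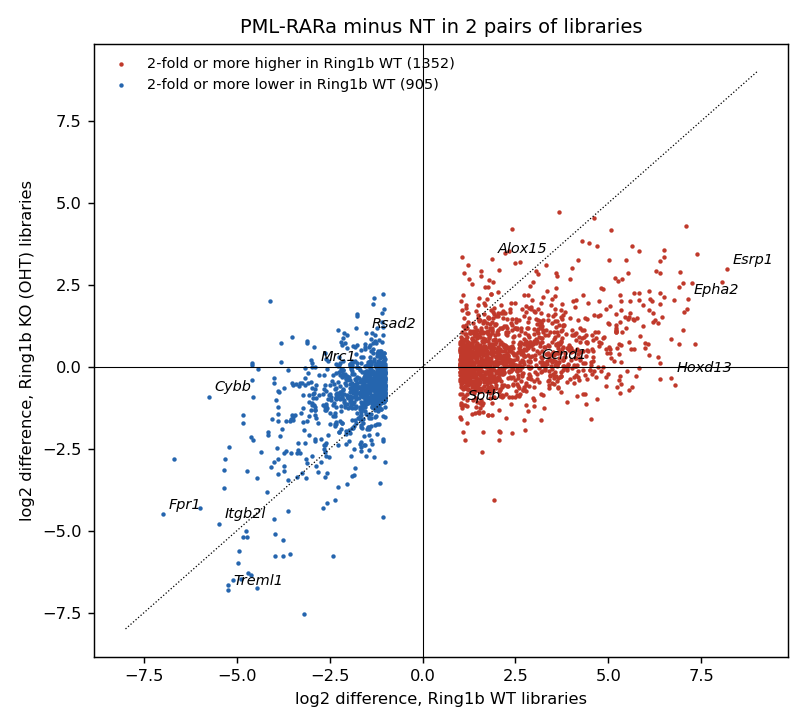
Log2 difference, PML-RARa minus NT, in the Ring1b WT pair (horizontal axis) and in the OHT-treated Ring1b KO pair (vertical axis) for the 1352 higher (red) and 905 lower (blue) transcripts of the first pair. The dotted line marks equal differences. Many red points lie near 0 on the vertical axis, and neutrophil and platelet genes such as Fpr1, Itgb2l and Treml1 are low in both pairs.

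Transcripts higher in PML-RARa were richer in GC than those that were lower. The median GC content was 54.5% for the higher transcripts, 50.2% for those within 2-fold and 47.7% for the lower ones (97.6% of the compared transcripts had a sequence). In 5 classes of equal size from low to high GC, the share of higher ones was 4.55%, 8.06%, 11.3%, 14.5% and 23.5%, and that of lower ones 13.7%, 8.53%, 8.34%, 5.91% and 4.45%. The median difference ran from -0.24 in the lowest class to 0.15 in the highest. In the OHT pair it ran from -0.18 to -0.08. In the Ring1b WT libraries it ran from -0.19 to 0.04 for HOXA9 against the same NT library, and for MLL-AF9 it was -0.0007 in the lowest class and -0.02 in the highest. With differences centred within each class, 1338 transcripts were 2-fold higher and 758 lower. The part of base composition in the single differences was not tested.

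**Figure D5:**
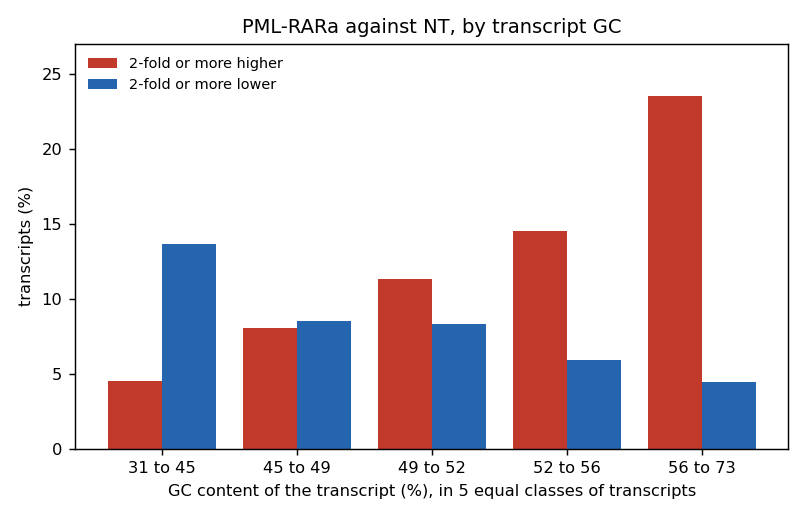
Share of the compared transcripts that were at least 2-fold higher (red) or lower (blue) in PML-RARa than in NT, by 5 equal classes of transcript GC content (horizontal axis, percent GC). The higher share runs from 4.55% in the lowest class to 23.5% in the highest, and the lower share from 13.7% to 4.45%.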

How the data were processed

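mRNA libraries of lineage-negative mouse bone marrow cells were analysed from the deposited tables of the 4 contexts, which list 19353 RefSeq transcripts. The unit is a signal, the mean of reads after the authors' scaling, per the file headers, with 1 column for each library. The submitters' processing notes list TopHat, DESeq and mm9 without roles. Which program counted the reads, and on which annotation, is not given in the sources used here. Per the labels' protocols the kit was TruSeq RNA v2, which does not mark the strand, so overlapping antisense genes cannot be told apart. Groups were taken from the labels.

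The values of each library were whole multiples of what 1 read is worth, and dividing by it gave whole reads for 100% of the values (tolerance 0.02), with joint size factors of 1.05 for PML-RARa and 1.21 for NT. The lowest entry is 1 read, and whether it stands for 0 or 1 is not known. Totals of recovered reads ran from 4226751 to 6998223 over the 8 libraries. Ratios of the transcripts with most reads per base can be compressed, since counts level off near 2 per base.

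Tables were joined by identifier. Differences were taken on log2(value + 1) for transcripts reaching 20 in the higher library, and those of at least 2-fold were counted. With 1 library a side no test was made. Counting intervals of ratios are exact Clopper-Pearson intervals (95%) on the recovered reads. The genes named were the 15 largest differences each way among transcripts with at least 100 in the higher library, up to 6 abundant members past 2-fold per direction in each of 36 lists, and members whose role the text needs. Some genes that this rule names are not reported here. The members and lists were chosen with earlier results of these data known. Of the symbols, 1509 have several transcripts, which the counting measured poorly, and 36 stored as dates were restored through the identifier. GC content came from GENCODE transcripts matched by RefSeq accession. A quasi-likelihood fit in edgeR (version 4.0.16, R 4.3.3) on the recovered reads of all 8 libraries, with context and treatment as terms and Benjamini-Hochberg adjustment, was added after seeing the data and was tested on simulated data. Python 3.11.15 with scipy 1.17.1 did the rest.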

Additional observations from a re-analysis of the deposited data

Results flagged for a closer look

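Of the transcripts past 2-fold in the Ring1b WT pair, 52 that were higher in PML-RARa were at least 2-fold lower in the OHT pair, and 16 that were lower were at least 2-fold higher there. Opposite directions in 2 single pairs of libraries drew attention to them, and the difference between the pairs was not tested. Among the genes named, the erythroid gene Sptb differed by 1.09 in the Ring1b WT pair and by -1.17 in the OHT pair, where it was 157 in NT and 69.0 in PML-RARa. The interferon response genes Rsad2 (-1.51 and 1.03) and Cxcl10 (-2.27 and 1.12) went the other way. In the OHT pair Rsad2 was 313 in NT and 638 in PML-RARa and Cxcl10 59.2 and 130, and both were far higher in the OHT libraries of HOXA9 (1923 and 457) and MLL-AF9 (2004 and 438). For Cd63, 1 transcript differed by -1.35 and 1.04, with 9.35 and 20.2 after OHT. The other compared transcript of Cd63 differed by 0.24 in the Ring1b WT pair.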

How the results depend on the processing

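Counts of 2-fold higher and lower transcripts (1352 and 905) stayed within 1.5 times under a pseudocount of 10, scaling by totals, centring on the median, TMM factors, removal of transcripts over 0.5 reads per base, and, both chosen after seeing the data, centring within 5 classes of GC content and use of genes with a single transcript only. With a value of at least 100 they were 783 and 469, and with no filter on low values 2383 and 1585. Where the counting interval of the ratio had to lie beyond 2-fold, 970 were higher and 465 lower. With the OHT pair in place of the Ring1b WT pair 457 were higher and 630 lower, so that higher ones made up 42.0% of those past 2-fold instead of 59.9%. edgeR's quasi-likelihood test over the 8 libraries, which averages PML-RARa against NT over both treatments and was chosen after seeing the data, called 0 higher and 0 lower of 10599 (0%) at an adjusted p under 0.05 (smallest 0.0632); at an unadjusted p under 0.05 it had 1272, of which 670 were higher and 602 lower. No named transcript past 2-fold changed direction under the scaling, pseudocount and GC alternatives. Changes of direction among those within 2-fold were not counted. Of all named transcripts, 43 of 196 moved beyond their counting interval with a pseudocount of 10, 27 with centring by GC and 1 with centring on the median. In the OHT pair, named transcripts under 20 were not counted, and among them Gipr changed direction (-0.56). Of those that reached 20, 24 past 2-fold in the Ring1b WT pair changed direction, and the cause was not tested. The differences there were -0.18 for Vdr, -0.12 for Btg2, -0.47 for Epor, -0.32 for Gata3, -0.75 for H2-Ab1, -0.30 for Hoxa5, -0.33 for Hoxd13, -0.30 for Klf1, -0.82 for Krt18, -0.60 for Mycn, -0.79 for Nrarp, -0.10 for Pdk1, -0.60 for Procr, -1.17 for Sptb, -0.00296 for Tgm2 and -0.38 for Zic2. On the lower side they were 0.60 for Bcl2a1a, 1.04 for Cd63, 1.12 for Cxcl10, 0.14 for Ifit2, 0.34 for Kit, 0.00012 for Mrc1, 1.03 for Rsad2 and 0.0682 for Usp18. No paired analysis was possible because each group has 1 library, all numbered alike. Counting error limits transcripts with few reads, and spread between cultures was not measured.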
